A study of Saccharomyces cerevisiae with 13 samples.

Results

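The genes described here are the 10 genes of budding yeast RNA polymerase I named by a fixed list of identifiers, out of 6205 genes on the arrays. They are RPA190 (YOR341W), RPA135 (YPR010C), RPA49 (YNL248C), RPA43 (YOR340C), RPA34 (YJL148W), RPA12 (YJR063W), RPA14 (YDR156W), RPC40 (YPR110C), RPC19 (YNL113W) and RRN3 (YKL125W). All 10 had a value on each of the 13 arrays and all 10 passed the filter that required values on 10 arrays. Of these, 9 encode subunits and RRN3 encodes an initiation factor that binds the enzyme.

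The cells were of the W303 background and carried mutations in YOX1 and YHP1, as labelled. They were arrested with the mating pheromone alpha factor, released into the rich medium YEPD, and sampled at 0, 10, 20, 30, 40, 50, 60, 70, 80, 90, 100, 110 and 120 min. Each time point was hybridised once, so each group is 1 array and there are no replicates. Sample RNA carried Cy5, and RNA from an unsynchronised wild-type culture, grown overnight in YEPD to an optical density of 0.6, carried Cy3 on each array. Values are log10 ratios of sample over reference after centring each array on its median, and a negative value means less of the transcript in the sample, relative to the median gene, than in the reference. Folds take the base to be 10, which was inferred from the values. All arrays follow 1 culture, so a p-value reflects how far these arrays scatter about a fitted curve, and the spread between cultures is unknown. In such a bulk culture, a change in every cell and a change in a share of the cells cannot be told apart.

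RNA polymerase I makes the large ribosomal RNA precursor in the nucleolus and does no other known transcription in yeast. Its largest subunits, encoded by RPA190 and RPA135, form the active centre. RPC40 and RPC19 form a scaffold pair that is also part of RNA polymerase III, and a further set of small subunits is shared by RNA polymerases I, II and III. Genes of ribosome production are known to be regulated together in yeast with nutrients and growth.

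The culture cycled. The mean of 35 genes of the G1/S list had a fitted peak at 19.4 ± 1.19 min (SE), and that of 16 genes of the CLB2 list, expressed in G2 and mitosis, at 47.2 ± 2.18 min. The cycle length of 62 min was the one that fitted the G1/S mean best. The genes named in the strain label were checked first. YHP1 had log10 ratios of -0.50 to -0.12, all 13 of them below 0. YOX1 was below it on 10 arrays and ran from -0.53 to 0.12, so low YOX1 RNA was not seen throughout. YOX1 also passed the cycle test used below, with a swing of 2.79-fold and a peak at 26.3 min (limma adjusted p = 0.00775). Values below 0 on all 13 arrays do not single out YHP1, since 8 of the 10 RNA polymerase I genes had them too. The stretch of each gene that its spot covers is unknown here, and the directions below rest on the label. Across all genes the arrays correlated pairwise with r of 0.347 to 0.858, and the median scatter around the fitted curves was 0.044 log10 units.

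The first question was whether the RNA polymerase I genes changed with the cell cycle. RPA190, RPA49, RPA43, RPA14 and RPC40 passed the test for a cycle. Their fitted peaks lay at 51.2 to 53.5 min after release and their swings from trough to peak ran from 1.36-fold to 1.64-fold. Those 5 of 10 compare with 15.0% of 6151 genes tested (limma, moderated F test, Benjamini-Hochberg adjustment over all genes, threshold 0.05). The median swing of the 10 genes was 1.42-fold, and that of all genes tested was 1.19-fold. RPA135 and RPA12 had fitted swings of 1.45-fold and 1.58-fold but missed the threshold, as did RPA34, RRN3 and RPC19. At an unadjusted p under 0.05, 8 of the 10 passed, against 33.3% of all genes.

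**Figure D1:**
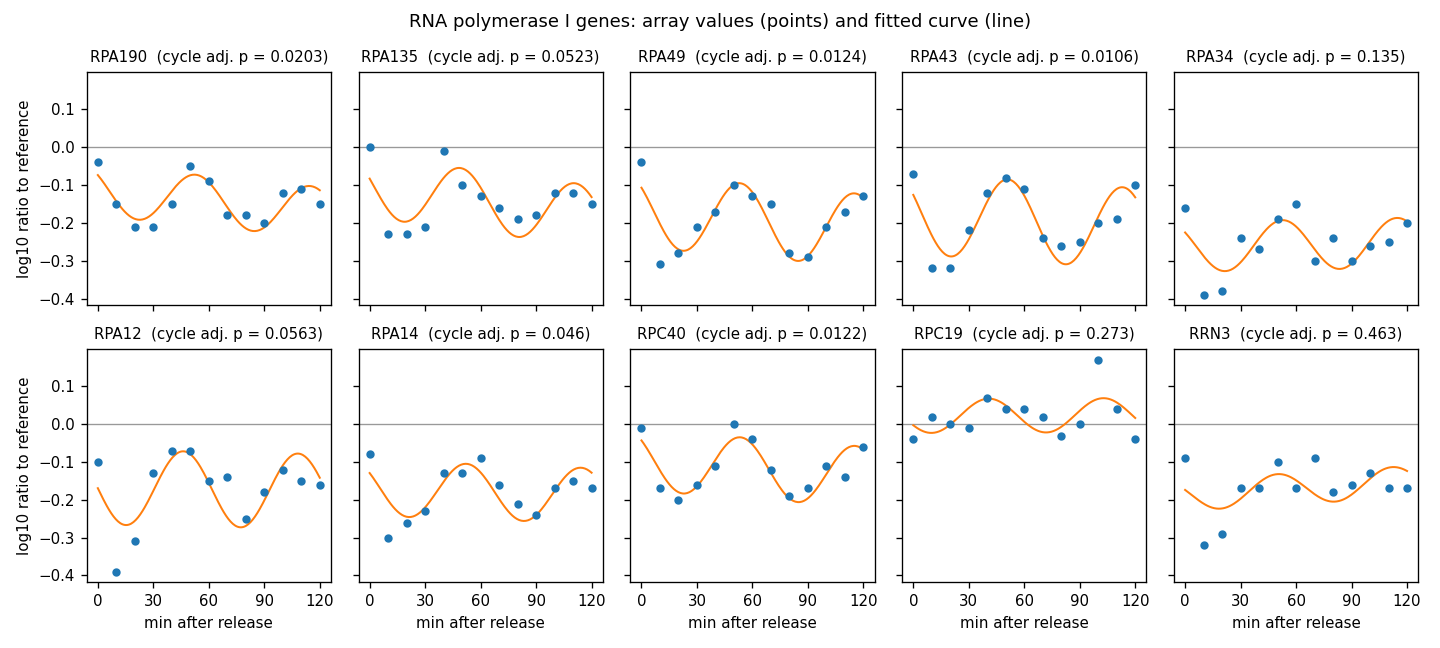
Log10 ratio of sample over unsynchronised reference (vertical axis) by minutes after release (horizontal axis) for each of the 10 genes. Points are single arrays, the line is the fitted curve, and the adjusted p of the cycle test stands above each panel. In all 10 panels the point at 20 min lies below those at 40, 50 and 60 min, and RPC19 lies between -0.04 and 0.17.

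RPA43, a stalk subunit to which the initiation factor Rrn3 binds, had the widest fitted swing. Its log10 ratios from 0 to 120 min were -0.07, -0.32, -0.32, -0.22, -0.12, -0.08, -0.11, -0.24, -0.26, -0.25, -0.20, -0.19 and -0.10. It was highest at 0 min, lowest at 10 and 20 min, high at 50 min, low again at 70 to 90 min and high again at 120 min. The peak of the curve, at 51.2 ± 1.83 min, was 1.64-fold above the trough (amplitude 0.107 ± 0.020 log10 units, SE, n = 13 arrays; limma adjusted p = 0.0106). RPA14, the partner of Rpa43 in the stalk, peaked at 52.2 ± 2.57 min (SE) and swung 1.40-fold (adjusted p = 0.0460, limma). Its lowest log10 ratio was -0.30 at 10 min, its median -0.17 and its highest -0.08 at 0 min. The call for RPA14 was the least stable of the 5: it missed the threshold without the 0, 20, 30, 40, 50, 60, 90, 100 or 110 min array (adjusted p of 0.0522 to 0.107).

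Of the genes of the catalytic subunits, RPA190 passed the cycle test and RPA135 did not. RPA190, which encodes the largest subunit, had log10 ratios of -0.04, -0.15, -0.21, -0.21, -0.15, -0.05, -0.09, -0.18, -0.18, -0.20, -0.12, -0.11 and -0.15 from 0 to 120 min. It was lowest at 20 and 30 min and again at 90 min, and highest at 0 and 50 min. The curve peaked at 52.9 ± 2.20 min, 1.36-fold above its trough (SE, n = 13 arrays; limma adjusted p = 0.0203). This call was lost without the 20 min array (adjusted p = 0.0580), without the 50 min array (0.0723), without the 0 and 10 min arrays together (0.0534) and with a period 5 min longer (0.0650). RPA135, which encodes the second-largest subunit, had log10 ratios of 0.00, -0.23, -0.23, -0.21, -0.01, -0.10, -0.13, -0.16, -0.19, -0.18, -0.12, -0.12 and -0.15. It stood at the reference at 0 and 40 min and below it at the other times, and its fitted swing of 1.45-fold did not pass (peak 49.1 ± 2.47 min, SE; limma adjusted p = 0.0523).

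RPA49 and RPA34 encode a pair of subunits that bind each other and act in initiation and elongation. RPA49 peaked at 53.3 ± 2.00 min (SE) and swung 1.56-fold (limma adjusted p = 0.0124). Its log10 ratio was lowest at 10 min (-0.31), low again at 90 min (-0.29), and highest at 0 min (-0.04), with a median of -0.17. RPA34 had its lowest log10 ratio at 10 min (-0.39), its highest at 60 min (-0.15) and a median of -0.25, so its highest array lay near the median array of RPA49. Its fitted peak fell at 52.6 ± 3.54 min, and its swing of 1.35-fold did not pass (limma adjusted p = 0.135). RPA12, a subunit needed for cleavage of the transcript within the enzyme, ran from -0.39 at 10 min to -0.07 at 40 min. Its swing of 1.58-fold was the largest after that of RPA43, but its residual scatter of 0.071 log10 units was also the largest of the 10 genes, and the adjusted p was 0.0563 (limma). It passed without the 10, 70 or 110 min array (adjusted p of 0.0456, 0.0194 and 0.0439).

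RPC40 and RPC19, whose products pair with each other, had unlike profiles. RPC40 rose and fell 1.45-fold and peaked at 53.5 ± 2.00 min (SE; limma adjusted p = 0.0122). Its log10 ratio was lowest at 20 min (-0.20) and highest at 50 min (0.00), with a median of -0.12. RPC19 had log10 ratios of -0.04, 0.02, 0.00, -0.01, 0.07, 0.04, 0.04, 0.02, -0.03, 0.00, 0.17, 0.04 and -0.04 from 0 to 120 min. It stayed near the reference except at 100 min, and its fitted swing of 1.23-fold did not pass (peak 40.8 ± 4.16 min; limma adjusted p = 0.273). The fitted swing of RRN3 was 1.21-fold (limma adjusted p = 0.463), with -0.32 and -0.29 at 10 and 20 min and values between -0.18 and -0.09 on the other 11 arrays. The low stretch of RRN3 was thus seen after release and not 1 cycle later, when it had -0.09 at 70 min and -0.18 at 80 min.

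**Figure D2:**
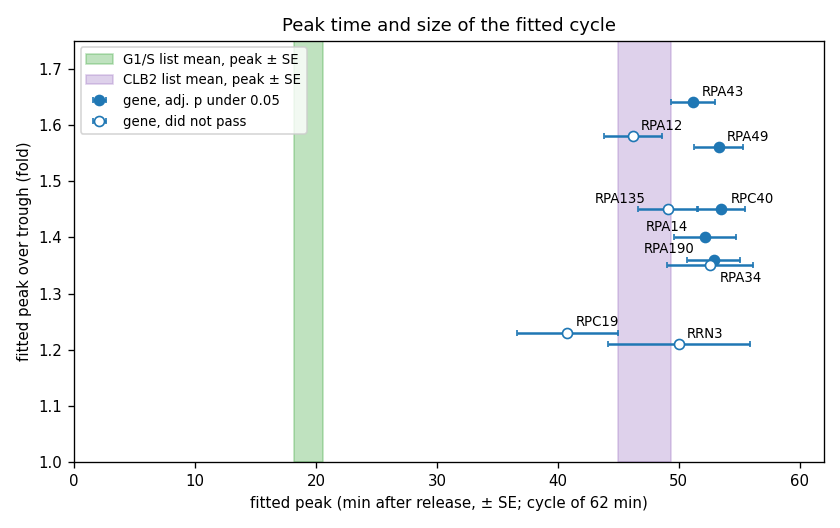
Fitted peak time in minutes after release (horizontal axis, ± SE) against the fitted peak-over-trough fold (vertical axis, which starts at 1) for each of the 10 genes. Filled points passed the cycle test and open points did not; the bands give the peak ± SE of the G1/S and CLB2 list means at 19.4 and 47.2 min. The 5 filled points lie between 51.2 and 53.5 min.

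The number of RNA polymerase I genes called depended on the fit. It was 2 with a period 5 min shorter, 1 with 2 harmonics and 3 without the 20 or the 50 min array, and it was 7 without centring, with array weights or with robust regression.

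The shape in each cycle was read from the 6 arrays between 10 and 60 min and the 6 between 70 and 120 min, with no test. In the first stretch all 10 genes had their highest value at 40, 50 or 60 min. In the second stretch 8 of 10 had their lowest at 80 or 90 min. The range was wider at 10 to 60 min than at 70 to 120 min for 9 of 10 genes. The shares of all genes for these counts were not computed. A narrower second stretch was also seen in list means of other genes. The G1/S mean ran from -0.26 to 0.30 and then from -0.15 to 0.16, and the CLB2 mean from -0.29 to 0.32 and then from -0.12 to 0.21. The mean of the ribosomal RNA processing genes ran from -0.33 to -0.13 and then from -0.26 to -0.18. RPA43 spanned 0.16 log10 units at 70 to 120 min against 0.25 at 10 to 60 min, and RPA12 spanned 0.13 against 0.32. RPC19 went the other way, with 0.21 against 0.08, and this rested on its value at 100 min. Of the 5 genes that passed the cycle test, RPA190 and RPA43 had a correlation of 0.728 between the 6 matching times, RPC40 of 0.576, RPA14 of 0.374 and RPA49 of 0.371. Of the others, RPA135 had 0.905, RPC19 0.70, RPA34 0.460, RPA12 0.394 and RRN3 -0.498. These points are arrays of 1 culture in time order and share a reference, so no p is given.

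The next question was how these genes stood against the unsynchronised reference over the whole course. All but RPC19 were lower: 9 of 10 passed, against 32.0% of all genes that passed in this direction (limma, intercept against 0, Benjamini-Hochberg over all genes). The median of the 10 mean log10 ratios was -0.171, 1.48-fold lower, and that of all genes was 0.003. With a minimum of 1.5-fold added, RPA34, RPA43, RPA49 and RPA14 were called, 4 of 10, against 4.24% of all genes. In all, 65.6% of the genes tested differed from the reference in either direction, and this test leaves out the error of the reference RNA and any dye bias. Genotype, arrest and culture all differ between sample and reference, and their parts cannot be told apart.

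RPA34 had the lowest mean, -0.26 ± 0.016 log10 units (SE, n = 13 arrays), 1.81-fold below the reference (limma adjusted p = 1.22e-08). It was the lowest of the 10 genes on 11 of 13 arrays. RPA43 and RPA49 followed, 1.57-fold and 1.56-fold lower (adjusted p = 3.78e-08 and 2.76e-08, limma), and their means differed by less than their SE of 0.014 and 0.013. RPA14 was 1.51-fold lower, RPA12 1.49-fold and RRN3 1.48-fold, and these neighbours in the order also lay within their SE of 0.013 to 0.017. RPA190 and RPA135 were each 1.39-fold lower, with means of -0.143 ± 0.010 and -0.143 ± 0.014. RPC40 was 1.31-fold lower (-0.12 ± 0.011, adjusted p = 5.58e-07, limma).

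RPC19 was the exception, with a mean of 0.02 ± 0.014 log10 units (1.06-fold higher, limma adjusted p = 0.143). It was the highest of the 10 genes on 12 of 13 arrays and below the reference on 4. RPA135 was below the reference on 12 of 13 arrays, and each of the other 8 genes was below it on all 13. The direction and the call of these 9 genes were the same in each alternative run, including each array left out in turn.

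**Figure D3:**
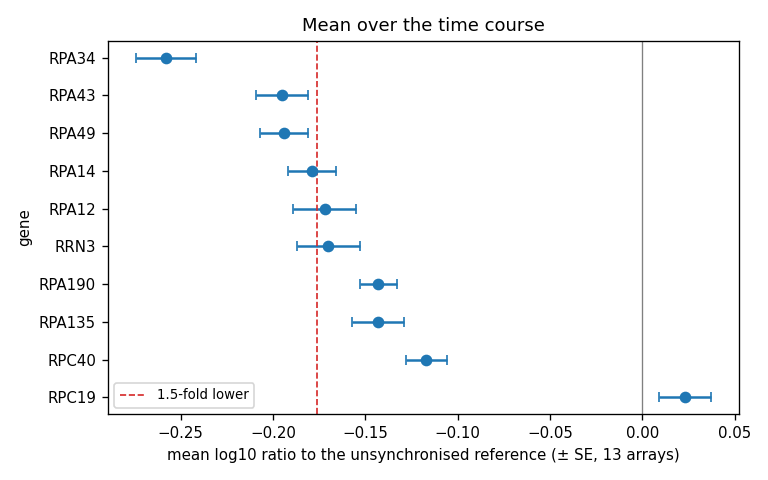
Mean log10 ratio to the reference over the 13 arrays (horizontal axis, points, with SE as bars) for each of the 10 genes, ordered by their mean down the page. The dashed line marks 1.5-fold lower than the reference. RPA34 stands lowest at -0.258, and RPC19 alone lies above 0.

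The third comparison concerned the arrested cells. The median log10 ratio of the 10 genes was -0.30 at 10 min after release, against -0.06 in the arrested cells at 0 min. Of the 10 genes, 9 were lower at 10 min than at 0 min, with a median difference of -0.23 log10 units (1.69-fold), while the median difference of all genes was -0.01. At least a 1.5-fold drop was seen for 7 of 10 genes, RPA135, RPA49, RPA43, RPA34, RPA12, RPA14 and RRN3, against 6.17% of all genes. Of the lists described below, such a drop was seen for 16 of 27 ribosomal RNA processing genes (median difference -0.21). It was seen for 4 of 10 RNA polymerase III subunit genes (median -0.16) and 3 of 11 RNA polymerase I factor genes. None of 7 RNA polymerase II genes and none of 136 ribosomal protein genes dropped that far. Each difference is between 1 array and 1 array with no replicate check, and the 1.5-fold limit was applied to it after the values were seen. RPA12 had -0.39 at 10 min against -0.10 at 0 min, a change of 1.92-fold. RPA49 had -0.31 at 10 min against -0.04 at 0 min, 1.85-fold. RPA190 changed least among the genes that dropped, with -0.15 at 10 min against -0.04 at 0 min, 1.29-fold.

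The step between 60 and 70 min, about 1 cycle length later, was smaller, but the 2 steps need not match in phase. The CLB2 list mean went from -0.26 to -0.29 between 0 and 10 min, and from 0.21 to 0.02 between 60 and 70 min. Of the 10 genes, 8 had their lowest value of the second stretch only at 80 or 90 min. From 60 to 70 min 8 of 10 genes moved down, with a median of -0.05 log10 units against 0.00 for all genes. The share of all genes that moved down was not computed. None of the 10 moved down by 1.5-fold (2.54% of all genes did). RPA34 had -0.30 at 70 min against -0.15 at 60 min, the largest of these drops at 1.42-fold, followed by RPA43 at 1.36-fold. RRN3 and RPA12 did not drop, with changes of 0.09 and 0.01. The 10 min value lay below the 70 min value for 8 of 10 genes, and the share of all genes was not computed.

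**Figure D4:**
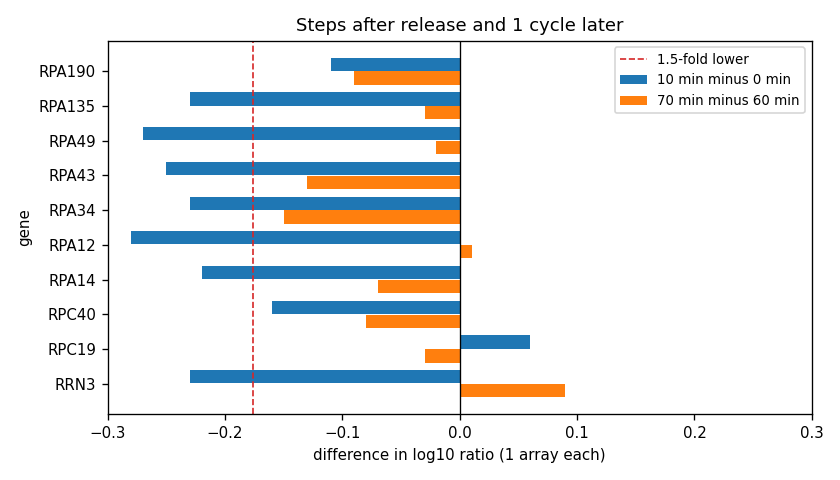
Difference in log10 ratio between 2 neighbouring arrays (horizontal axis) for each of the 10 genes. Blue bars give 10 min minus 0 min, orange bars give 70 min minus 60 min, and the dashed line marks 1.5-fold lower. Blue bars of 7 genes pass that line, and no orange bar does.

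The 0 min array was also set against the curve fitted to the later arrays, as that curve runs back to 0 min. The phases need not match. The CLB2 list mean was -0.26 at 0 min but 0.21 at 60 and at 120 min, and 4 of 16 CLB2 genes passed as lower at 0 min. The G1/S list mean was more alike, with -0.13 at 0 min, -0.18 at 60 min and -0.15 at 120 min. Whether arrest differed from the same phase of a later cycle was thus not tested. No RNA polymerase I gene passed in either direction (0 of 10). Of 6109 genes, 55 (0.900%) were higher at 0 min and 49 were lower (limma, Benjamini-Hochberg). At an unadjusted p under 0.05, 2 of the 10 genes passed, against 11.6% of all genes. The 0 min term was above 0 for 9 of 10 genes, with a median over the 10 of 0.083 log10 units, against 0.004 for all genes. RPA135 had the largest, 0.16 ± 0.047 log10 units (SE; 1.43-fold, adjusted p = 0.151). With robust regression RPA135 and RPA49 passed (adjusted p = 0.0144 and 0.0158, limma), in a fit that called 312 genes higher against 55 in the ordinary fit.

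A linear drift over the course, beside the cycle, passed for 0 of the 10 genes (limma). Of all genes, 1.19% rose and 1.12% fell. At an unadjusted p under 0.05, 0 of the 10 genes passed, against 17.7% of all genes. Fitted drifts ran from -0.039 ± 0.025 log10 units per 60 min for RPA135 to 0.018 ± 0.029 for RRN3 (SE). Robust regression called a fall for RPA12 (adjusted p = 0.0282).

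The genes were also compared with each other. Among the 36 pairs that leave out RPC19, the correlation over the 13 arrays ran from 0.447 to 0.924 with a median of 0.755, and RPA43 and RPC40 were the closest pair. The 9 pairs with RPC19 had r of -0.083 to 0.272. All values share the arrays and the reference, so these are descriptions without p.

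RPA190 and RPA43 are neighbours on their chromosome, and the W and C of their identifiers place them on opposite strands, pointing away from each other. Their profiles correlated with r = 0.751. RPA43 minus RPA190 was -0.03, -0.17, -0.12, -0.02, 0.03, -0.02, -0.02, -0.06, -0.08, -0.05, -0.09, -0.08 and 0.05 log10 units from 0 to 120 min. RPA43 was thus the lower of the pair on 11 of 13 arrays, with the gap widest at 10 and 20 min. None of the other 8 genes has a neighbour among the 10.

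Other parts of the transcription machinery were read from lists chosen with earlier results of these data known. RNA polymerase III gave the nearest counts: 5 of its 10 own subunit genes passed the cycle test and 9 of 10 were below the reference, with 2 at least 1.5-fold lower and 1 above it. Its median swing was 1.34-fold, and its called genes peaked between 49.9 and 54.2 min. Among them RPC34 swung 1.57-fold (limma adjusted p = 0.0293), the largest-subunit gene RPO31 1.53-fold (adjusted p = 0.0169) and RPC53 1.48-fold (adjusted p = 0.0208). Of the 7 genes particular to RNA polymerase II, 0 passed the cycle test by limma, and RPO21, which encodes its largest subunit, had the widest fitted swing at 1.21-fold (adjusted p = 0.171). In that list 4 were below the reference, 1 was above it and 0 were 1.5-fold lower, with a median swing of 1.14-fold.

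The 5 subunit genes common to RNA polymerases I, II and III stood near the reference. None passed the cycle test, with adjusted p of 0.182 to 0.658 and fitted swings of 1.06-fold to 1.27-fold. Only RPB5 was called lower, at -0.13 log10 units (1.34-fold). The list of 11 factors that start or end RNA polymerase I transcription likewise held 0 genes that passed the cycle test, and 8 below and 2 above the reference, none by 1.5-fold. RRN11, a part of the core factor at the ribosomal RNA gene promoter, had the widest fitted swing in it (1.49-fold, peak 40.1 ± 2.80 min, SE; limma adjusted p = 0.0848). A difference between these lists and the 10 genes was not tested.

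Downstream of the enzyme, 28 genes of ribosomal RNA processing gave 13 that passed the cycle test, and all 28 were below the reference, 22 of them by 1.5-fold. Their mean peaked at 51.7 ± 2.17 min (SE), and that of the 10 RNA polymerase I genes at 50.6 ± 2.11 min. The widest swings among those called were those of YTM1 (1.69-fold), IMP4 (1.60-fold) and NOP58 (1.58-fold), which act in ribosome assembly or in the modification of ribosomal RNA. In contrast, 1 of 136 ribosomal protein genes passed the cycle test, RPL5 (1.34-fold, limma adjusted p = 0.0298), and 29 were below and 39 above the reference, with a median swing of 1.09-fold. Of 5 regulators of ribosome production genes, SCH9, a kinase of growth signalling, peaked at 46.1 ± 1.48 min (SE) and swung 1.57-fold (limma adjusted p = 0.00616). STB3 peaked at 7.76 ± 2.48 min and swung 1.36-fold (limma adjusted p = 0.0479). The other 3 did not pass (limma adjusted p of 0.236 for TOD6, 0.145 for SFP1 and 0.888 for DOT6). Their fitted peaks lay at 47.5 ± 3.84, 56.8 ± 3.93 and 50.7 ± 15.9 min, with swings of 1.55-fold, 1.16-fold and 1.05-fold.

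**Figure D5:**
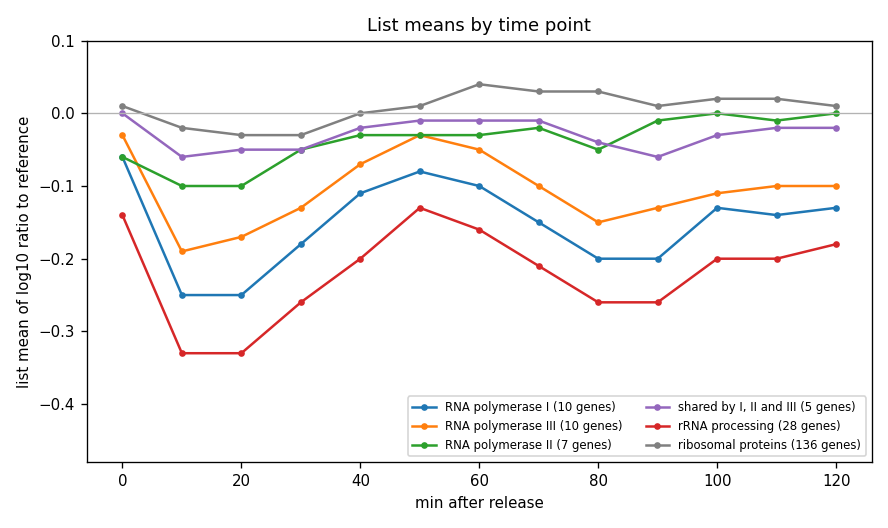
Mean log10 ratio to the reference (vertical axis) by minutes after release (horizontal axis) for 6 gene lists, whose sizes stand in the legend. RNA polymerase I, RNA polymerase III and ribosomal RNA processing genes are lowest at 10 and 20 min and low again at 80 and 90 min, while the other 3 lists lie within 0.10 log10 units of the reference at each time.

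The genes with the profile most like the mean of the 10 were taken from 5664 other genes with all 13 values, by Pearson correlation over the 13 arrays. They were RLP7 (r = 0.961), CIC1 (0.957), ENP1 (0.955), NMD3 (0.954), TSR1 (0.952), YML018C (0.952), YTM1 (0.951), TRM112 (0.948), RIX1 (0.948) and BMT5 (0.948). Their fitted peaks lay between 48.7 and 51.6 min and their swings between 1.46-fold and 1.69-fold. RLP7 and YTM1 were on the ribosomal RNA processing list. That list was a choice of 28 genes, so absence from it does not place a gene outside ribosome production. TRM112 stood close to the reference, with a mean log10 ratio of -0.05, and the other 9 lay between -0.28 and -0.12.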

How the data were processed

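The deposited table holds log10 ratios of Cy5 (sample) over Cy3 (reference) for 13 arrays, with dyes per the labels. Base 10 was inferred because 18 values stand at a ceiling or floor of 2 or -2, which would be 100-fold in base 10 but 4-fold in base 2; no other value exceeds 1.61 in size. In base 2, the RPA43 swing would be 1.16-fold. The authors' background correction, normalisation and filters are unknown: not given in the sources used here. Deposited array medians lay between -3.8e-05 and 0.0078.

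Of 6217 rows, 12 control rows were left out. Symbols came from a RefSeq table of assembly R64, by locus tag, for 5703 of 6205 genes. Values at 2 or -2 were set to missing (0 of them in the 10 genes), each array was centred on its median, and genes with values on 10 arrays (6151) were fitted with limma 3.58.1 in R 4.3.3: intercept, linear time, cosine and sine of a cycle. The period, sought from 50 to 80 min, was 62 min. The 0 min comparison replaced linear time by a term for that array. P-values were adjusted over all genes by Benjamini-Hochberg with a threshold of 0.05, two-sided. The number of arrays limits the precision.

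The genes and lists were chosen with earlier results of these data known. Named genes were all 10 members, YOX1 and YHP1, for each other list up to 3 genes of widest swing among those past the cycle test (or the widest where none passed), and the 10 genes most like the members' mean. The 3 regulators that did not pass were named as well. Promoter sequences were not analysed here.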

Additional observations from a re-analysis of the deposited data

How the results depend on the processing

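Of the alternatives run, none turned the direction of a called mean among the 10 genes. A fitted swing has no direction that could turn, and peak times were not compared between the runs. The count of RNA polymerase I genes passing the cycle test, 5, was 2 with a period 5 min shorter and 1 with 2 harmonics, 4 with a period 5 min longer or without the 0 and 10 min arrays, 6 with quantile normalisation or no linear time, 7 without centring, with array weights or with robust regression, and 3 to 6 with 1 array left out. The count lower than the reference was 9 throughout, and that at least 1.5-fold lower, 4, was 3 to 6 with 1 array left out. With robust regression, 2 of the 10 genes were higher at 0 min and 1 drifted down, against 0 and 0. Over all genes, cycle calls (922) numbered 455 with a period 5 min shorter, 212 with 2 harmonics, 1530 with array weights, 2274 with robust regression and 486 to 985 with 1 array left out. Genes higher at 0 min (55) numbered 312 with robust regression and 40 to 84 with 1 array left out. Genes drifting up (73) numbered 45 with a period of 60 min, 156 with quantile normalisation, 38 with a period 5 min shorter, 27 with 2 harmonics, 152 with array weights, 394 with robust regression and 19 to 89 with 1 array left out. Genes drifting down (69) numbered 131 with quantile normalisation, 104 with a period 5 min longer, 17 with 2 harmonics, 205 with array weights, 457 with robust regression and 14 to 135 with 1 array left out. The cause of these changes was not tested. The cycle call of RPA43 was lost with a period 5 min shorter (adjusted p = 0.0623, limma), that of RPC40 with 2 harmonics (0.0702), and that of RPA49 with either (0.0742 and 0.0732). RPA14 also missed it with a period of 60 min (0.0578), a period 5 min shorter (0.109) and 2 harmonics (0.224), and RPA190 with 2 harmonics (0.168). RPA135 passed with a period of 60 min (0.0453), without centring (0.0470), with array weights (0.0187) and with robust regression (0.0129). RPA12 passed without centring (0.0482), with quantile normalisation (0.0333), without linear time (0.0418), with array weights (0.00859) and with robust regression (0.000126). No paired analysis was possible because each time point has 1 array. Signal over background is unknown.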
